A study of Mus musculus with 3 samples.

Results

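The alternative splicing events and event counts of voltage-gated and related ion channel genes were examined in the mouse hippocampus. Members were taken by gene symbol alone: every event of a potassium channel (Kcn), sodium channel (Scn with a number), calcium channel (Cacn), hyperpolarization-activated channel (Hcn), chloride channel (Clcn) or transient receptor potential channel (Trpc, Trpm or Trpv) gene. The rule found 81 of 8727 events, in 40 genes, and no Hcn event was among them. Libraries came from hippocampal RNA of 3 C57BL/6J mice of wild-type genotype, aged 10 weeks, with 1 mouse in each of 3 groups. All 3 mice carried an adeno-associated virus of serotype 9 (AAV9), which the study injected on both sides into CA1 of the dorsal hippocampus, and which expresses Egfp with a CTG repeat in its 3′-untranslated region. The virus held 10 repeats in the CUG10 + vehicle mouse and 300 in the CUG300 + vehicle and CUG300 + CWG-cPIP mice, so only transduced cells held the repeat, and no mouse without virus was analysed here. CWG-cPIP, a cyclic pyrrole-imidazole polyamide that recognises CAG and CTG repeat DNA, was injected together with the virus, and the vehicle mice received solvent in its place.

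Voltage-gated channels are built from a pore-forming alpha subunit and auxiliary subunits that set gating, surface level and location. Sodium channels start the action potential, potassium channels end it and hold the resting potential, and calcium channels couple it to transmitter release. Chloride channels of the Clcn family include exchangers of endosomes and lysosomes, and Trpc channels are cation channels opened downstream of receptors. Many of these genes carry short alternative exons that alter gating or partner binding. In myotonic dystrophy, expanded CUG RNA sequesters MBNL splicing factors, and missplicing of a muscle chloride channel gene is its best known channel defect. The muscle gene itself was not among the member events.

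The measure of splicing was PSI (percent spliced in), given here from 0 to 1 as the share of the inclusion form after both counts had been divided by their effective lengths. The deposited length of the skipping form, 74 nt, corresponds to shorter reads than the study's methods give for splicing, and which read length was set is not known, so every PSI carries that doubt. With no lengths used at all, the plain share of counts can differ from PSI. The 217-nt exon of Kcnj3 in CUG300 + vehicle had a PSI of 0.670 and a plain share of 0.889, with 1 skipping count of 9. This gap does not measure the doubt about read length. Events were skipped exons (SE, 54 of the 81 member events, 66.7%, against 74.8% of all events), retained introns (RI, 4), pairs of mutually exclusive exons (MXE, 5), and exons with more than one 5′ end (A3SS, 9) or 3′ end (A5SS, 9). Of the 54 skipped exons, 48 were coding throughout, 30 (55.6%, against 48.1% of all skipped exons) had a length that was a multiple of 3, and 10 (18.5% against 12%) were 51 nt or shorter. In 21 of the 54, no annotated transcript joined the neighbouring exons without the exon. Over events with counts for every library, the libraries held 609546, 567697 and 560672 counts for CUG10 + vehicle, CUG300 + vehicle and the CWG-cPIP mouse, the order used for every set of 3 library values below. The channel events were covered more thinly than most. Their median count per event was 20.5, 7 and 20.5 in these libraries, against 22, 13 and 24 over all events. Of the 81 events, 33, 14 and 33 had at least 20 counts, and 13 had at least 20 in every library.

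The CUG300 + vehicle library stood apart from both others. Ttr, a transthyretin gene of the choroid plexus, had 38435 counts there and 104 and 63 in CUG10 + vehicle and CUG300 + CWG-cPIP. The 8 microglial and immune markers with counts (of 15 on the list) summed to 20100 counts per 1000000 counts (CPM) against 2880 and 5030, and the 8 neuronal markers with counts (of 16) summed to 3580 CPM against 11400 and 12300. Most of the immune sum in CUG300 + vehicle came from B2m, H2-K1 and H2-D1, with 11200, 3540 and 2130 CPM, so it is not a measure of microglia alone. Each of the 8 neuronal markers, Snap25, Syt1, Syn1, Rbfox3, Slc17a7, Camk2a, Map2 and Eno2, had its lowest CPM in that library. Neuronal markers were thus present in every library, as the tissue label requires, and choroid plexus transcripts were abundant in one. The part of these differences in the channel values was not tested, and with 1 mouse a group it cannot be told apart from the repeat or the compound. Every difference below is between 2 libraries, has no replicate check, and carries intervals that cover counting error only.

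Sequences of the alternative channel regions on which the results turn are given first, 5′ to 3′, as the GENCODE M21 transcripts hold them, with mm10 positions. The 20-nt coding exons of Cacnb3 (chr15:98640959-98640978, plus strand) and Cacnb1 (chr11:98010627-98010646, minus strand) are shown because both entered an MXE event. These genes encode beta subunits, which bring calcium channel pores to the membrane. The exons match at 15 of 20 bases (75.0%), with the bases that differ in capitals.
Cacnb3 20-nt exon: ccaaGcagaagcaAaaGCAg
Cacnb1 20-nt exon: ccaaAcagaagcaGaaATCg
The next 2 exons of Cacnb3, at chr15:98641177-98641257 and chr15:98641400-98641458, form the member event whose PSI differed most among those with 20 or more counts in both libraries of a pair.
Cacnb3 81-nt exon: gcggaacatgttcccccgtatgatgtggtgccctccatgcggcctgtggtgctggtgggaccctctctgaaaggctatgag
Cacnb3 59-nt exon: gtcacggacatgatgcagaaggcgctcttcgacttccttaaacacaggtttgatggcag
Cacna1g, a T-type calcium channel pore, has a 21-nt extension of one exon (chr11:94425764-94425784, minus strand, in capitals, with 12 transcript bases on each side) next to an alternative 54-nt exon (chr11:94423671-94423724), both in the linker between its last domains.
Cacna1g 21-nt extension: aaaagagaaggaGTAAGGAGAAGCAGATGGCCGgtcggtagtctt
Cacna1g 54-nt exon: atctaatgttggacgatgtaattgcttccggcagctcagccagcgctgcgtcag
The 4-nt extension of Kcnip3 (chr2:127465975-127465978, minus strand, in capitals) has a length that is not a multiple of 3, and it gave one of the lowest unadjusted p-values among the members.
Kcnip3 4-nt extension: tgtccatggaagACAGcagtgacagtga
The last example is the Cacna2d3 18-nt exon (chr14:29124666-29124683, minus strand), a coding exon whose length is a multiple of 3 and which was used in part.
Cacna2d3 18-nt exon: ctccctcaggctcaaaag

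Splicing of the channel events was first compared between libraries to ask which exons moved with the CUG repeat and with CWG-cPIP. No channel event was called in any pair. An event was called when Fisher's exact test on its inclusion and skipping counts (two-sided, Benjamini-Hochberg adjusted over all events of its type in the pair) gave an adjusted p under 0.05 and PSI differed by more than 0.15. The test compares the reads of 2 libraries, not the conditions. For CUG300 + vehicle minus CUG10 + vehicle, 0 of 49 listed channel events were called, against 0.16% of 6263 events. For CUG300 + CWG-cPIP minus CUG300 + vehicle the count was 0 of 54, against 0.389% of 6679 events. For CUG300 + CWG-cPIP minus CUG10 + vehicle it was 0 of 75, against 0.115% of 6983 events. At shares this low, fewer than 1 call would fall on so few events at the background rate. With no adjustment the channel counts were 0, 0 and 3, against 1.8%, 2.7% and 1.53% of all events. The lowest unadjusted exact p-values among the channels were 0.111, 0.156 and 0.0163, and the lowest adjusted exact p-values 0.645, 0.84 and 0.275.

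A size criterion with no test gave a similar picture. Among events with 20 or more counts in both libraries of the pair, 0 of 8 channel events passed a PSI difference of 0.15 between CUG300 + vehicle and CUG10 + vehicle (9.34% of 2526 events), and 0 of 11 between CUG300 + CWG-cPIP and CUG300 + vehicle (11.3% of 2514). Between CUG300 + CWG-cPIP and CUG10 + vehicle, 3 of 26 passed (8.56% of 3096), all with lower PSI in CUG300 + CWG-cPIP. Of the 265 events of all genes that passed in this pair, 117 were lower and 148 higher. The libraries of this pair differ in both repeat and compound. With plain shares of counts in place of PSI, 1 channel event passed in this pair. The median absolute PSI difference of the channel events was 0.052, 0.041 and 0.039 in these pairs, against 0.041, 0.043 and 0.047 over all events. Few of the channel events were deep enough to exclude a difference of 0.15. The 95% interval of the difference lay wholly within 0.15 of 0 in 2 of 8, 3 of 11 and 6 of 26 of them, or 25%, 27.3% and 23.1%, against 35.7%, 33.1% and 31% over all events of that depth. The Cacng8 exon was among them in every pair, both Kcnab2 exons in the second and the last, and the 76-nt exon of Clcn3 in the last. At lower depth differences were wide, in channels and over all events. In the first pair 27 of the 49 listed channel events passed 0.15 with fewer than 20 counts, against 2383 of 6263 events of all genes. Only 16.3% of these channel events had 20 or more counts in both libraries, against 40.3% of all events, so these counts compare unlike depths. The median count of the shallower library was 6 over the 49, against 13 over all events.

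**Figure D1:**
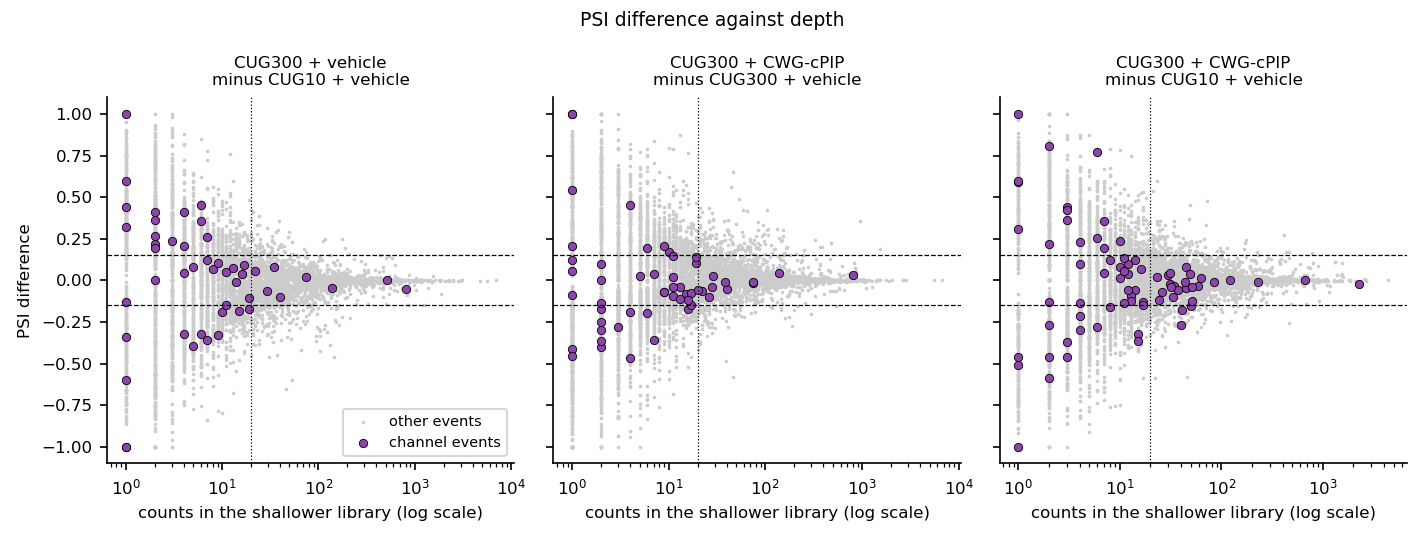
PSI difference of each listed event (y axis) against the counts in the shallower library (x axis, log scale) for the 3 pairs of libraries, with channel events in purple and all other events in grey. Dashed lines mark a difference of 0.15 in either direction and the dotted line 20 counts. The channel events, like the other events, spread widely to the left of the dotted line. Only 3 channel events, all in the right panel and all below the lower dashed line, pass 0.15 to its right.

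Of the 3 events that passed 0.15, 2 were mutually exclusive exon events of Cacnb3. The inclusion form of such an event uses its upstream exon. The 81-nt exon over the 59-nt exon had 31 of 40 inclusion counts in CUG10 + vehicle, 9 of 15 in CUG300 + vehicle and 27 of 52 in CUG300 + CWG-cPIP. PSI was 0.747 (95% interval 0.579 to 0.876), 0.563 (0.290 to 0.815) and 0.481 (0.341 to 0.625). PSI was thus highest in CUG10 + vehicle and lower in both CUG300 libraries, with the CUG300 + vehicle interval overlapping the other intervals. CUG300 + CWG-cPIP minus CUG10 + vehicle was -0.266 (-0.438 to -0.060), with an unadjusted Fisher's exact p of 0.0163 and an adjusted p of 0.275. The 20-nt exon over the 81-nt exon had 13 of 41, 5 of 16 and 7 of 41 inclusion counts in the same order, with PSI 0.434, 0.428 and 0.253. CUG300 + CWG-cPIP minus CUG10 + vehicle was -0.180 (-0.380 to 0.049), an interval that holds 0. The last Cacnb3 pair, the 59-nt over the 110-nt exon, had 26 of 59, 11 of 29 and 30 of 74 inclusion counts, with PSI 0.522, 0.458 and 0.485.

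Annotated transcripts hold both exons of each Cacnb3 pair, so the PSI of these events need not measure a choice between the exons. Of the GENCODE transcripts, 2 hold both exons of the 20-nt and 81-nt pair, 2 both exons of the 81-nt and 59-nt pair, and 3 both exons of the 59-nt and 110-nt pair. Transcripts with one exon of a pair alone are also annotated. At the 20-nt and 81-nt pair, 1 has the 20-nt exon alone and 1 the 81-nt exon alone. At the 81-nt and 59-nt pair, 0 have the 81-nt exon alone and 1 the 59-nt exon alone. At the 59-nt and 110-nt pair, 0 have either exon alone. As skipped exons the same 4 exons were close to fully included. The 20-nt exon had 38 of 38, 11 of 11 and 31 of 32 inclusion counts, and the 81-nt exon 56 of 56, 18 of 19 and 57 of 57. The 59-nt exon had 34 of 34, 17 of 19 and 55 of 56, and the 110-nt exon 43 of 44, 22 of 22 and 71 of 73. The lowest of these 12 PSI values was 0.825 (0.529 to 0.977), that of the 59-nt exon in CUG300 + vehicle. The 3 MXE events share exons, and so reads, and are not independent of each other.

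The other event past 0.15 was in Trpc4, a receptor-operated cation channel. A 252-nt stretch listed as a retained intron (chr3:54317573-54317824, plus strand, coding) had 54 of 54, 39 of 40 and 48 of 50 inclusion counts, with PSI 1.00, 0.899 and 0.845. All 3 intervals overlapped. CUG300 + CWG-cPIP minus CUG10 + vehicle was -0.155 (-0.407 to 0.107), and the difference rested on 2 skipping counts. In every library most counts were on the retained form, which the annotation holds as coding sequence.

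Potassium channel pores were mostly covered by skipped exons. Kcnh3, a forebrain channel of the ether-a-go-go family, included its 77-nt exon in 51 of 52, 16 of 16 and 49 of 49 counts. The 81-nt exon of Kcnma1, the large-conductance calcium-activated channel, had 11 of 11, 2 of 2 and 13 of 14 inclusion counts. Of the annotated Kcnma1 transcripts, 5 include this exon and 25 skip it, whereas 1 count over the 3 libraries was on the skipping form. The other Kcnma1 exons, of 174, 29 and 12 nt, had at most 8 counts in a library. Kcnn1, a small-conductance calcium-activated channel, included a 111-nt exon in 16 of 17, 3 of 4 and 11 of 11 counts. Kcnd3, Kcnh1 and Kcnt1 had at most 16 counts an event in any library.

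Among inward rectifiers and two-pore channels, exons were mostly included. Kcnk1, a two-pore channel of weak inward rectification, had 193 of 193, 136 of 137 and 262 of 262 inclusion counts at a 396-nt exon (chr8:126025012-126025407, plus strand, coding), with PSI 1.00, 0.955 and 1.00. Kcnk2, a mechanosensitive two-pore channel, had 60 of 61, 35 of 35 and 45 of 45 at a 311-nt exon. Its 118-nt exon had 15 of 15, 4 of 5 and 18 of 22 inclusion counts, with PSI 1.00, 0.607 and 0.634, and CUG300 + CWG-cPIP minus CUG10 + vehicle was -0.366 (-0.619 to 0.079). Kcnj3, a G protein-gated inward rectifier, had 51 of 51, 8 of 9 and 82 of 85 at a 217-nt exon (chr2:55446826-55447042, plus strand, coding), with PSI 1.00, 0.670 (0.214 to 0.989) and 0.874 (0.697 to 0.972). For these 4 exons no interval of a difference between libraries excluded 0. Kcnk13 had 3 events at 3 or fewer counts.

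Potassium channel partners were next. Kcnab2, a beta subunit that aids surface expression of axonal potassium channels, had 243 of 243, 75 of 75 and 229 of 230 inclusion counts at a 133-nt exon (chr4:152435805-152435937, minus strand) and 85 of 85, 38 of 38 and 147 of 148 at a 42-nt exon (chr4:152434782-152434823). Of the annotated transcripts 2 skip the 42-nt exon, and that form had 1 count in all. Kcnip2, a calcium sensor that binds A-type potassium channel pores, had 36 of 36, 10 of 11 and 55 of 55 inclusion counts at a 54-nt exon and 29 of 30, 13 of 13 and 54 of 55 at a 96-nt exon. Kcnip3 is of the same family and is also known as a transcriptional repressor. Its 4-nt 3′ splice site extension had 22 of 28, 3 of 7 and 7 of 15 inclusion counts, with PSI 0.777 (0.578 to 0.913), 0.416 (0.094 to 0.808) and 0.454 (0.204 to 0.724). Both CUG300 libraries lay below the CUG10 library, with overlapping intervals. CUG300 + CWG-cPIP minus CUG10 + vehicle was -0.323 (-0.568 to -0.025), with an unadjusted exact p of 0.0457 and an adjusted exact p of 1. Kcnip1 had 5 or fewer counts at each of its 2 events. Every event described beside the 21 that were named by rule and stand in the plot of PSI was singled out after its values were seen, among them the Kcnip3 4-nt event, the 176-nt event of Clcn3 and the events of Cacna2d3, Cacnb1, Cacna1g, Cacna1h, Kcnn1 and Scn8a.

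Sodium channel events were mostly in Scn3b, one of the beta subunits, which modulate gating and act in cell adhesion. Scn3b included its 164-nt exon in 51 of 51, 28 of 28 and 75 of 76 counts, and a 90-nt noncoding retained intron in 17 of 31, 3 of 10 and 19 of 36, with PSI 0.354, 0.162 and 0.335. The 164-nt exon (chr9:40277068-40277231, plus strand) is also listed from a 3′ splice site 4 nt downstream, as a 160-nt exon with 37 of 37, 20 of 20 and 50 of 51 inclusion counts, and the choice between both sites had 15 of 16, 8 of 8 and 25 of 25 counts on the upstream site. These 3 events share reads and are not separate evidence. The pore genes were thinly covered. Scn2a1 (Scn2a in GENCODE) had 35 of 36, 4 of 4 and 31 of 31 inclusion counts at a 54-nt exon. Scn8a, the sodium channel of the axon initial segment, has a mutually exclusive pair of exons, of which the upstream exon is the neonatal form and the downstream exon the adult form. The neonatal exon had 0 of 9, 0 of 1 and 1 of 8 counts, so nearly all counts were on the adult exon. The upper 95% bound of the neonatal share was 0.336 in CUG10 + vehicle, 0.975 in CUG300 + vehicle and 0.527 in CUG300 + CWG-cPIP.

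Short alternative regions of calcium channel genes were not used alike. The 18-nt exon of Cacna2d3 and the 21-nt extension of Cacna1g were used in part in CUG10 + vehicle and CUG300 + CWG-cPIP, at low depth. The 36-nt exon of Cacna1a was mostly included, as was the 20-nt exon of Cacnb3 as a skipped exon. Cacna1a, the P/Q-type pore of presynaptic terminals, had 42 of 42, 26 of 26 and 32 of 33 inclusion counts at a 187-nt exon and 15 of 16, 13 of 14 and 11 of 13 at a 36-nt exon. Cacna1g had 6 of 6, 3 of 3 and 9 of 11 inclusion counts at the 54-nt exon shown above and 2 of 5, 0 of 1 and 1 of 4 at the 21-nt extension, and a second event of each region, with another neighbouring splice site, had at most 8 counts in a library. Cacna1h included a 134-nt exon in 9 of 10, 3 of 3 and 25 of 25 counts. Cacna2d3, an alpha2delta subunit that aids trafficking of the pores, had 14 of 18, 7 of 7 and 9 of 13 inclusion counts at its 18-nt exon, with PSI 0.738 (0.469 to 0.922), 1.00 (0.537 to 1.00) and 0.644 (0.336 to 0.889). Cacnb1 used the 20-nt exon in place of the 155-nt exon in most counts: the 155-nt exon had 0 of 17, 2 of 9 and 1 of 12. CUG300 + vehicle minus CUG10 + vehicle at Cacnb1 was 0.105 (-0.010 to 0.332), with an unadjusted exact p of 0.111. Cacng8, which despite its name is best known as an auxiliary subunit of hippocampal AMPA receptors, had 120 of 121, 75 of 75 and 123 of 124 inclusion counts at an 84-nt exon (chr7:3411175-3411258, plus strand, coding). Cacna1e, Cacna2d2 and Cacnb4 had at most 6 counts at each event.

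Chloride and transient receptor potential channels closed the list. Clcn3, an endosomal chloride-proton exchanger, almost never used a 76-nt exon (chr8:60914753-60914828, minus strand, coding), with 0 of 24, 0 of 11 and 1 of 23 inclusion counts, although 2 annotated transcripts include it. The 0 counts allowed a PSI of up to 0.076 and 0.164. A 176-nt exon of Clcn3 had 3 of 6 inclusion counts in CUG10 + vehicle and 9 of 9 in CUG300 + CWG-cPIP, with an unadjusted exact p of 0.044 and an adjusted exact p of 1. Clcn4-2 (Clcn4 in GENCODE), a related exchanger, had 61 of 63, 17 of 17 and 73 of 75 at a 155-nt exon, and Clcn7, of lysosomes, had 24 of 24, 16 of 16 and 24 of 25 at a 170-nt exon. Trpv2 included its exon at chr11:62596910-62597037 in 35 of 35, 28 of 28 and 16 of 17 counts. Trpc1 and Trpc6 included exons of 102 and 234 nt in 9 of 10, 4 of 4 and 20 of 22 and in 5 of 6, 6 of 6 and 17 of 18 counts. Trpm2, Trpm3 and Trpm7 had at most 8 counts an event.

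**Figure D2:**
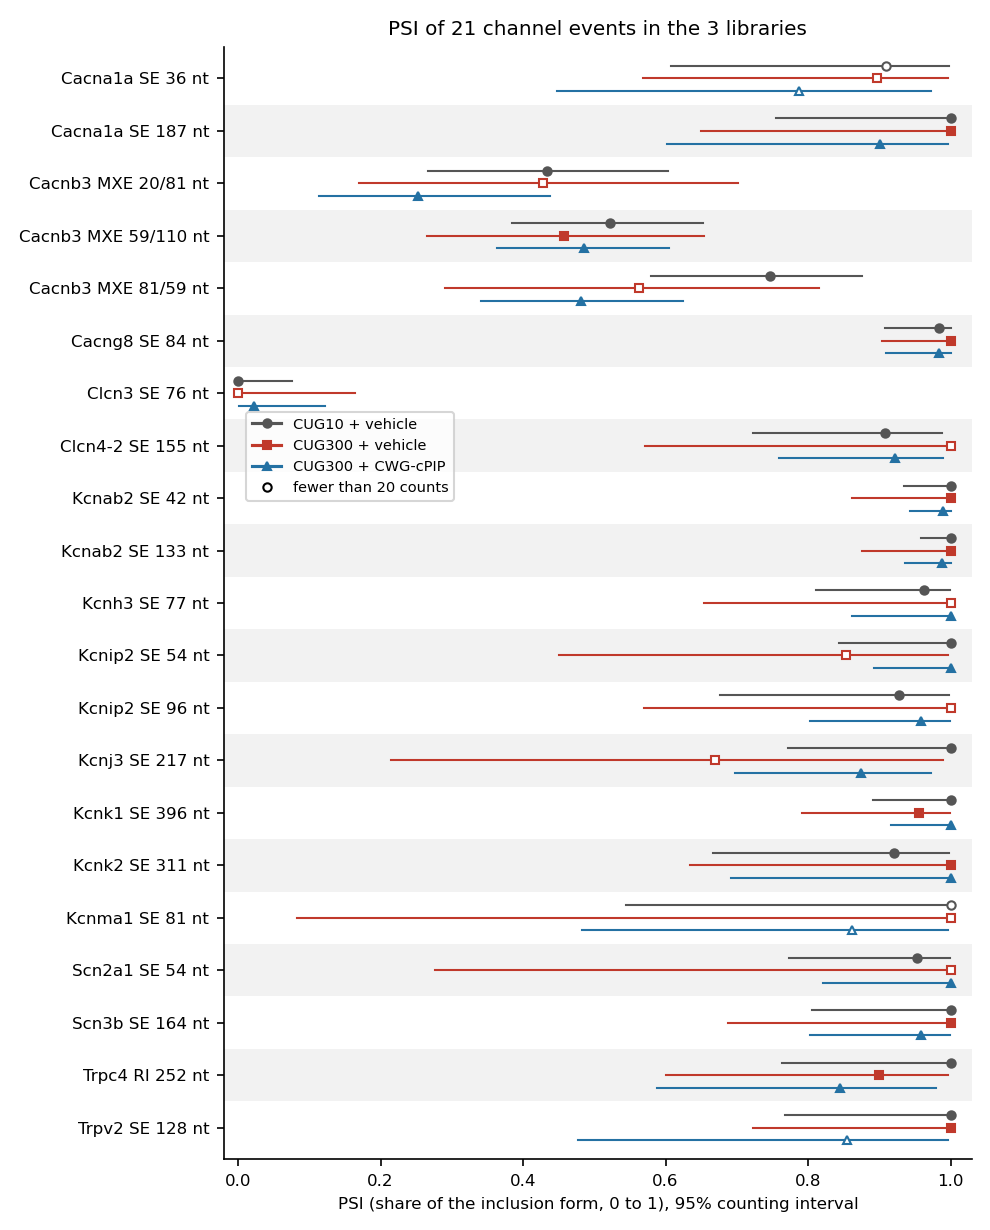
PSI of 21 channel events (x axis, 0 to 1, with 95% counting intervals) in the CUG10 + vehicle (grey circles), CUG300 + vehicle (red squares) and CUG300 + CWG-cPIP (blue triangles) libraries, with open symbols for fewer than 20 counts. Rows give the gene, event type and length of the alternative region; most events sit near 1, the 3 Cacnb3 MXE events lie between 0.253 and 0.747, and the 76-nt exon of Clcn3 lies near 0.

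Summed over the libraries, 30 of the 53 channel events with at least 20 counts had a PSI above 0.9 (56.6%, against 54.7% of 6399 events), 20 lay from 0.1 to 0.9 (37.7% against 40.2%) and 3 below 0.1. This distribution was near that of all events. Event tables hold only events in which both forms were seen in a pair, and none of the listed events had one form alone in both libraries, so channel exons that were always included do not appear.

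The amount of channel RNA was read from the inclusion and skipping counts of each gene summed over its events and divided by the library total (CPM). These sums depend on which events a gene has, so they were compared between libraries and never between genes. Neighbouring events of a gene can share reads, which then enter a sum more than once, so the counting intervals of genes with several events are too narrow, and values from the deepest event alone are given beside them. In bulk tissue, fewer neurons and less channel RNA per neuron cannot be told apart. The sums hold only events with counts for every library. Of the 81 channel events, 13 (16%, against 7.77% of all events) had no counts for CUG300 + vehicle and are left out. For CUG10 + vehicle and CUG300 + CWG-cPIP these were 2 and 0. Of 35 channel genes with counts for every library, 19 had at least 50 counts in all. All 19 had lower CPM in CUG300 + vehicle than in CUG10 + vehicle, and 18 of 19 had higher CPM in CUG300 + CWG-cPIP than in CUG300 + vehicle. Most other genes moved the same way: 72.7% of 2867 genes were lower in the first pair and 71% higher in the second. The median log2 ratio of the channel genes was -0.96, 1.51 and 0.16 for CUG300 + vehicle minus CUG10 + vehicle, CUG300 + CWG-cPIP minus CUG300 + vehicle and CUG300 + CWG-cPIP minus CUG10 + vehicle. Over all genes it was -0.48, 0.61 and 0.15. Without the Ttr counts in the library totals the channel medians were -0.86, 1.41 and 0.16. Relative to the median gene, 14 of the 19 channel genes were lower and 5 higher in the first pair, 15 were higher and 4 lower in the second, and 10 were higher and 9 lower in the third.

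By CPM, 9 of 19 channel genes were over 2-fold lower in CUG300 + vehicle than in CUG10 + vehicle (27.1% of all genes) and 0 over 2-fold higher (4.39%). In CUG300 + CWG-cPIP, 11 of 19 were over 2-fold higher than in CUG300 + vehicle (36.7%) and 0 lower (6.98%). Between CUG300 + CWG-cPIP and CUG10 + vehicle, 0 were over 2-fold lower (0.942%) and 0 higher (6.73%). Relative to the median gene, 5 of 19 were over 2-fold lower in the first pair (12% of all genes) and 6 of 19 over 2-fold higher in the second (19.7%). The groups share libraries, so the first and second comparisons are not independent of each other.

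Kcnab2 had 328, 113 and 378 counts, with a ratio of CUG300 + vehicle to CUG10 + vehicle of 0.370 (95% counting interval 0.296 to 0.459) and of CUG300 + CWG-cPIP to CUG300 + vehicle of 3.39 (2.74 to 4.22). From its deepest event alone they were 0.331 (0.252 to 0.431) and 3.11 (2.38 to 4.09). The gene was lowest in the CUG300 + vehicle library by margins far wider than the counting error, and the spread between mice is unknown. Kcnj3 had 51, 9 and 85 counts, with ratios of 0.189 (0.082 to 0.389) and 9.56 (4.81 to 21.6). Clcn4-2 had 132, 34 and 137 counts, with ratios of 0.277 (0.184 to 0.406) and 4.08 (2.79 to 6.13), or 0.290 (0.159 to 0.501) and 4.47 (2.61 to 8.07) from the deepest event.

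The partners of A-type potassium channels were also lowest in the CUG300 + vehicle library. Kcnip2 had 66, 24 and 110 counts, with ratios of 0.390 (0.234 to 0.631) and 4.64 (2.96 to 7.55). Kcnip3 had 54, 16 and 48 counts, with ratios of 0.318 (0.170 to 0.564) and 3.04 (1.69 to 5.73). Kcnip2 was also higher in CUG300 + CWG-cPIP than in CUG10 + vehicle, by 1.81 times (1.32 to 2.50), whereas Kcnip3 was not separated there (0.966, 0.641 to 1.45). From the deepest event, Kcnip2 had ratios of 0.328 (0.151 to 0.659), 5.06 (2.62 to 10.7) and 1.66 (1.07 to 2.60) in the 3 pairs, and Kcnip3 of 0.372 (0.153 to 0.818), 3.71 (1.74 to 8.82) and 1.38 (0.800 to 2.40). Kcnh3 had 52, 16 and 49 counts, with ratios of 0.330 (0.176 to 0.588) and 3.10 (1.73 to 5.84). In Cacnb3 the counts were 312, 131 and 385 over 7 events that share reads, with ratios of 0.451 (0.365 to 0.555) and 2.98 (2.43 to 3.66), or 0.528 (0.326 to 0.837) and 2.58 (1.66 to 4.12) from the deepest event.

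Scn3b, Kcnk1, Kcnk2 and Cacng8 differed less between CUG300 + vehicle and CUG10 + vehicle than the genes above. Scn3b, the sodium channel beta subunit, had 135, 66 and 188 counts, with ratios of 0.525 (0.385 to 0.710) and 2.88 (2.17 to 3.88), and lay above CUG10 + vehicle in CUG300 + CWG-cPIP at 1.51 (1.21 to 1.90). These sums count the reads of its 164-nt exon in several events, and the 164-nt event alone gave 0.589 (0.358 to 0.953), 2.75 (1.76 to 4.40) and 1.62 (1.12 to 2.36). Kcnk1 had 193, 137 and 262 counts, Kcnk2 76, 40 and 67, and Cacng8 121, 75 and 124. Their ratios in the first pair were 0.762 (0.608 to 0.954), 0.565 (0.375 to 0.839) and 0.666 (0.492 to 0.895), and that of Kcnk2 from its deepest event was 0.616 (0.395 to 0.949). Relative to the median gene, Kcnk1, Kcnk2 and Cacng8 differed by 0.09, -0.32 and -0.1 on the log2 scale in that pair.

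Cacna1a had 58, 40 and 46 counts, Trpc4 54, 40 and 50, and Trpv2 42, 34 and 32. For these 3 genes the counting intervals of all ratios included 1, as did those of Clcn3 and Clcn7. From the deepest event of Trpv2 alone, CUG300 + CWG-cPIP to CUG10 + vehicle was 0.528 (0.277 to 0.968). Relative to the median gene Cacna1a, Trpc4 and Trpv2 were higher, not lower, in CUG300 + vehicle, by 0.06, 0.16 and 0.29 on the log2 scale. So were Kcnk1 and Clcn7, by 0.09 and 0.03. Among the genes below 100 counts, Scn2a1, with 36, 4 and 31 counts, had the lowest log2 ratio of the 19 genes in the first pair (-2.78), and Clcn3 and Clcn7 had log2 ratios of -0.96 and -0.45. The remaining 16 genes with counts for every library had fewer than 50 counts in all.

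**Figure D3:**
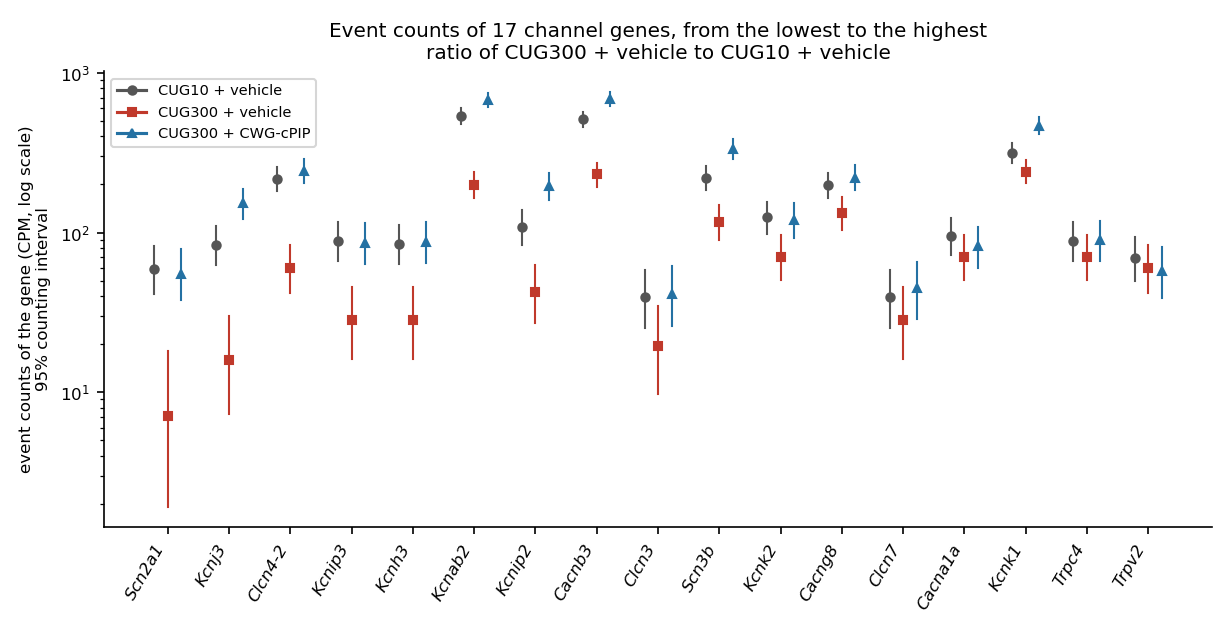
Event counts per 1000000 counts (CPM, y axis, log scale, with 95% counting intervals) of 17 channel genes in the 3 libraries, ordered by the ratio of CUG300 + vehicle to CUG10 + vehicle. The red squares of CUG300 + vehicle lie lowest for all genes except Trpv2, and the gap narrows from Scn2a1 on the left to Trpv2 on the right.

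The channel values lay beside those of neuronal markers. The 8 neuronal markers with at least 50 counts had a median log2 ratio of -1.63 (range -2.47 to -0.88) for CUG300 + vehicle minus CUG10 + vehicle and 1.86 (0.61 to 3.71) for CUG300 + CWG-cPIP minus CUG300 + vehicle. Snap25, a synaptic SNARE gene, had 3866, 1036 and 3584 counts, and Slc17a7, the vesicular glutamate transporter of pyramidal cells, 1292, 362 and 1108. The 5 oligodendrocyte markers had medians of -0.38 and 0.40, and the 7 microglial and immune markers 2.77 and -1.73. The 3 endothelial and choroid plexus markers had medians of 2.55 and -2.56 but did not move together. Ttr had log2 ratios of 8.62 and -9.21 and Enpp2 of 2.55 and -2.56. Pecam1 lay on the opposite side, with -0.62 and 0.84. The 2 astrocyte markers with that depth lay on opposite sides, with 316, 796 and 539 counts of Gfap and 79, 27 and 153 of Fgfr3. The channel median thus lay between those of the neuronal and oligodendrocyte markers. The part of cell makeup in the channel values was not tested.

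Channel partners were read in the same way from a list of 37 genes. The list held mainly genes that anchor or bind channels, but also intracellular calcium channels and a leak channel complex. Of the 37, 18 had counts for every library and 16 at least 50. All 16 were lower in CUG300 + vehicle than in CUG10 + vehicle (72.7% of all genes), with a median log2 ratio of -1.77 (-3.15 to -0.35) against -0.48 over all genes. All 16 were higher in CUG300 + CWG-cPIP than in CUG300 + vehicle (71% of all genes), with a median of 1.90 against 0.61. Ank3, the ankyrin that clusters sodium channels at the axon initial segment, had 59, 15 and 59 counts. Dlg2, a scaffold of potassium channels and receptors, had 56, 5 and 65, and Fgf12, which binds sodium channel pores, had 174, 42 and 114. In splicing, 0 partner events were called in any pair. Of those with at least 20 counts, 2 of 10, 2 of 9 and 1 of 18 passed 0.15, against 9.34%, 11.3% and 8.56% of all events of that depth, among them events of Nrcam, a cell adhesion gene of the node of Ranvier, in each pair.

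**Figure D4:**
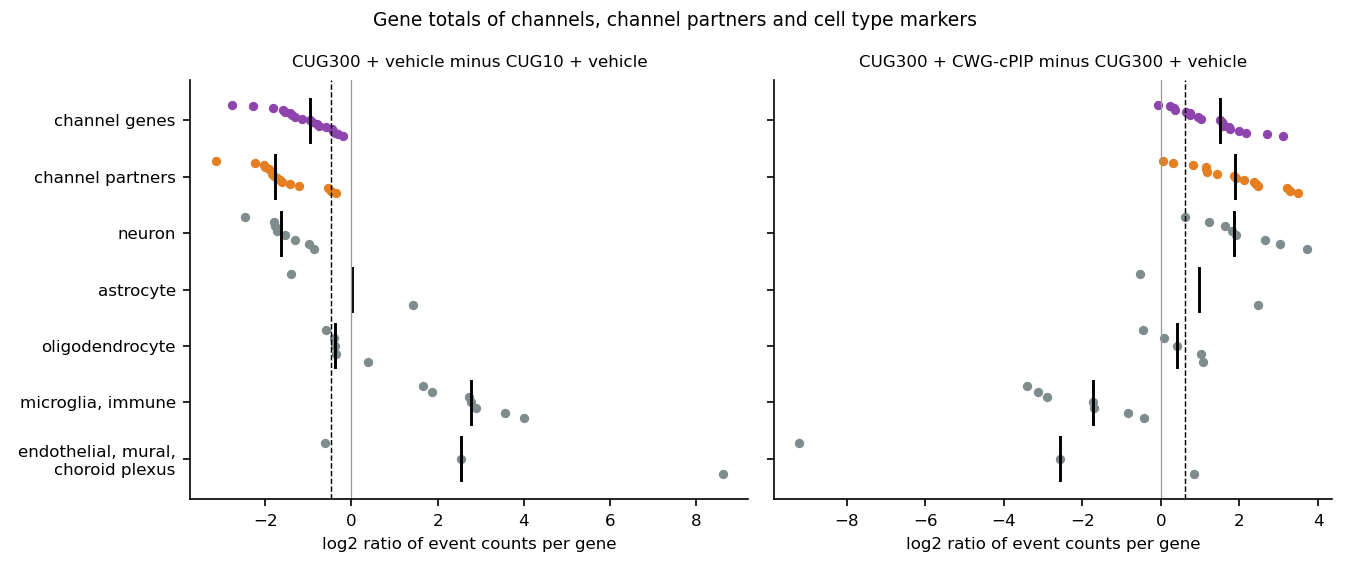
Log2 ratio of event counts per gene (x axis) for channel genes, channel partners and cell type markers with at least 50 counts, for CUG300 + vehicle minus CUG10 + vehicle (left) and CUG300 + CWG-cPIP minus CUG300 + vehicle (right); each point is a gene, the thick bar the list median and the dashed line the median of all genes. Channel genes, channel partners and neuronal markers lie mostly left of the dashed line in the left panel and right of it in the right panel, and the microglial and immune markers lie on the opposite side.

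Because CWG-cPIP binds CAG and CTG repeats, the longest runs of these triplets were read from the annotated transcripts of the channel genes. Kcnh3 held a run of 7 CAG and Cacna1e a run of 5, and no other channel gene reached 5. This was 2 of 40 genes, or 5%, against 3.92% of the 4718 genes, of 4860 with events, whose transcripts were read. Kcnh3 had nearly the same counts in CUG300 + CWG-cPIP and CUG10 + vehicle, with a ratio of 1.02 (0.679 to 1.54), and Cacna1e had at most 2 counts in a library. These libraries differ in both repeat and compound, and an effect of the compound on Kcnh3 was not tested. Introns were not read for runs. The longest run over all genes was 25.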

How the data were processed

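Splicing tables of 3 libraries (1 per group) were analysed. Reads came from a directional kit. The submitters' processing notes name Trim Galore 0.6.6, STAR 2.7.9a, RSEM 1.3.3 and mm10, and the authors quantified events by pair with rMATS, whose annotation is not given in the sources used here. The authors deposited inclusion and skipping counts (junction and exon reads) and effective lengths per event in 15 tables. The deposited PSI fractions were only used as a check: values recomputed from counts and lengths deviated by at most 0.0005. Columns with the authors' p-values, FDR and PSI differences were not used. Intervals were 95% Clopper-Pearson for PSI, Newcombe for differences and exact conditional for count ratios (SciPy 1.17.1). Log2 ratios used a pseudocount of 1 count. Members, gene lists and thresholds were chosen with earlier results of these data known. Named were events past 0.15 at 20 counts, the 16 deepest (1 per gene), and exons of a fixed gene list with at least 10 counts in 2 libraries, 25 in all, of which 21 are described. Some genes enter the counts and medians but are not reported here singly. Symbols matched GENCODE M21 for 38 genes, and 2 were matched by position. Tests, thresholds and alternatives are those named in the text.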

Additional observations from a re-analysis of the deposited data

How the results depend on the processing

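No paired analysis was possible because each group held 1 mouse, and no library could be left out of a pair. The count of called channel events stayed at 0 in every pair when p-values were adjusted over all event types together, at a PSI difference of 0.10, and over events with at least 20 counts only. With no adjustment it was 3 for CUG300 + CWG-cPIP minus CUG10 + vehicle. Channel events past a PSI difference numbered 0, 0 and 3 in the 3 pairs (CUG300 + vehicle minus CUG10 + vehicle, CUG300 + CWG-cPIP minus CUG300 + vehicle, CUG300 + CWG-cPIP minus CUG10 + vehicle). They became 3, 2 and 6 at a minimum of 10 counts, and in the third pair 1 at 50 counts. At a difference of 0.10 they were 1, 0 and 5, and at 0.20 the third pair kept 1. That pair also had 1 with plain shares of counts and 1 when the interval had to exclude 0, while adding events not listed for the pair, an alternative chosen after seeing the data, left 3. The median log2 ratio of channel gene totals for CUG300 + CWG-cPIP minus CUG300 + vehicle moved from 1.51 to 0.90 when ratios were scaled to the median gene, which removes the shift of all genes by construction. The medians of the 3 pairs otherwise kept their direction under all 6 alternatives, from -1.25 to -0.47, from 0.90 to 1.63 and from 0.01 to 0.37. Depth limits the rest: 13 of 81 channel events had 20 counts in every library.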
